A study of Mus musculus with 10 samples.

Results

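The genes of 10 glycolytic enzymes, among 32285 features counted, were described in the cells of the developing mouse lower incisor by stage and by lineage. They were Hk2, Gpi1, Pfkl, Aldoa, Tpi1, Gapdh, Pgk1, Pgam1, Eno1 and Ldha, chosen by gene symbol, and matched 11 rows because 2 rows carry the symbol Aldoa. At E14.5 their summed level was about as high in dental epithelium as in immune cells, with 4522 unique molecular identifiers (UMIs, counted RNA molecules) per 1e6 UMIs (CPM) in epithelium against 2262 in the mesenchyme beside it. All 10 genes were at least 1.5-fold higher in epithelium than in mesenchyme at E14.5, where 8.25% of 11412 genes were higher. Of the 10, 6 were higher at E16.5, where 7.90% of 12626 genes were. More of the 10 were higher at E16.5 when cells with 2 markers of another lineage were left out. Hk2 had the largest ratio at both stages. In mesenchyme Eno1 had the largest change between E11.5, whole mandibles, and E14.5, dissected buds.

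Glycolysis breaks glucose down to pyruvate in the cytosol, and lactate dehydrogenase can turn pyruvate into lactate. The first steps spend ATP to phosphorylate glucose and split it into triose phosphates, and the later steps, from glyceraldehyde phosphate onward, return ATP and NADH. Growing and hypoxic tissues often hold high levels of these transcripts, several of which are textbook targets of the hypoxia-inducible factor (HIF).

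The cells came from wild-type NMRI mouse embryos, with no allele or treatment that differed between groups: whole mandibles at E11.5 (embryonic days), then buds of the lower incisor at the 2 later stages, E14.5 and E16.5. Tissue was dissociated with Collagenase P and sequenced with the 10x Genomics 3' chemistry. The labels list 4, 4 and 2 samples, but each stage was deposited as 1 pooled matrix whose barcodes could not be assigned to them, so a stage is 1 sample here. No p-value was computed, and stage, dissected tissue, library and dissociation cannot be told apart. Every interval below is a 95% interval for counting error only (exact Poisson for levels, exact binomial for shares). Any pair of stages shared 13 to 17 cell barcodes, which were kept.

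Cells were kept from 700 genes upward and up to 20% mitochondrial UMIs, which left 6573, 6091 and 4511 cells from the earliest to the latest stage, with median depths of 5664, 3471 and 6260 UMIs. A cell took a lineage when it held UMIs of at least 3 of the 10 markers of that lineage and at least 2 markers more than of any other. Mesenchyme then held 5334, 4523 and 2537 cells, and epithelium 616 in the E14.5 buds and 1463 in those of E16.5. Only 9 cells at E11.5 were called epithelium, too few to compare. Endothelium held 68, 158 and 118 cells, immune cells 54 at E11.5 and 125 at E14.5, and erythroid cells 113 at E11.5. The share of cells left uncalled was 14.4%, 10.2% and 8.0%, and their summed level of the enzymes was 3425, 3621 and 3546 CPM. Because a marker count is a range, 825, 725 and 361 called cells lay next to the limit, and no doublets were removed. The markers that called the cells are given as a description, since their sums follow from the rule. The 10 epithelial markers summed to 1882 CPM in E14.5 epithelium and 71.2 CPM in mesenchyme of that stage. The 10 mesenchymal markers, which include Prrx1, Twist1 and Pdgfra, summed to 157 and 3899 CPM. In E16.5 epithelium and mesenchyme the epithelial markers summed to 2416 and 158 CPM, and the mesenchymal markers to 161 and 4566 CPM.

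Windows of 250 bases before the transcription start of each enzyme gene were searched for ACGTG on both strands. It is a form of the core of the element that HIF binds, and the form GCGTG was not searched. The 3 genes with at least 2 matches in a window are shown. Hk2 (1.54) and Pgk1 (1.46) had the largest log2 ratios of epithelium over mesenchyme at E14.5. Tpi1 (1.42) and Gpi1 (1.13), which had no match, came next, and Aldoa and Pgam1, with a match, stood at 1.04. Ldha, with the most matching positions, stood below these at 0.95. A link between matches and levels was not tested. The sequences are from RefSeq on GRCm38.p6, in lower case and 5′ to 3′ along the gene, with ACGTG or its reverse complement CACGT in capitals. Hk2 (chr6:82774455-82774704, minus strand) and Pgk1 (chrX:106186850-106187099, plus strand) end at the base before the start. The Ldha window (chr7:46845554-46845803, plus strand) overlapped no annotated exon but lies within the GENCODE gene, which begins further upstream at 46841475.
Hk2: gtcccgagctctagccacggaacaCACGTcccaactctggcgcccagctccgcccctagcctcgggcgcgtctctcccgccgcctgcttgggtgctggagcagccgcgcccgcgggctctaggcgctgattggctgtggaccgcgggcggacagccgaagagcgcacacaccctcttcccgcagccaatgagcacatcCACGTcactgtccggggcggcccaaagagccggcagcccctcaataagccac
Pgk1: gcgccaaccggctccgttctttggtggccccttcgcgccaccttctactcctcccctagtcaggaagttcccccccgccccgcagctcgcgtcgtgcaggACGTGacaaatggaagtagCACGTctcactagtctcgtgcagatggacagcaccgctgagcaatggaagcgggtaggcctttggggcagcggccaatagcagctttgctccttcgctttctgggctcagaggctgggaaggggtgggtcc
Ldha: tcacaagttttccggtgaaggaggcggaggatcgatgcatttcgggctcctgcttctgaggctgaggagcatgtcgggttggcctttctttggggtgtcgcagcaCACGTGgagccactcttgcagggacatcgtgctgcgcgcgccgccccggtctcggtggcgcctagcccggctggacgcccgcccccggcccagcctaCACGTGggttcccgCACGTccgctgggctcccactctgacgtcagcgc

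Hk2 matched 226 and 52 bases before the start, and Pgk1 150 and 131 bases before it. The Ldha window shown matched at 5 positions, 145, 144, 48, 47 and 34 bases before the start, of which the neighbouring pairs are the 2 strands of the palindrome CACGTG. A second Ldha window, before another annotated start (chr7:46846832-46847081), had no match. At least 3 matching positions were found in 1.22% of the 32851 windows of all genes, and at least 2 in 6.81%. Aldoa and Pgam1 had at most 1 match in a window, so 5 of the 10 genes had any match, against 18.5% of the 27025 genes with a window. Gpi1, Pfkl, Tpi1, Gapdh and Eno1 had no ACGTG on either strand in their windows. As GCGTG was not searched, they are not shown to lack the core. A match is a description of the sequence and not a bound site. On GRCm38 the genes span chr6:82725025-82774454 (Hk2), chrX:106187100-106203699 (Pgk1), chr7:46841475-46855627 (Ldha) and chr4:150236721-150248879 (Eno1), and the counts are of whole genes, not of exons.

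The first 5 enzymes prepare glucose for the payoff phase. Hk2, a hexokinase that traps glucose in the cell as glucose 6-phosphate, stood at 67.2 CPM (64.7 to 69.7) in E11.5 mesenchyme, 47.5 (44.3 to 50.8) in E14.5 mesenchyme and 32.0 (29.5 to 34.7) in E16.5 mesenchyme. It stood at 157 CPM (146 to 167) in E14.5 epithelium and 155 (149 to 161) in E16.5 epithelium. The mesenchymal level of Hk2 thus stepped down at each stage beyond counting error while the epithelial levels overlapped. In endothelium it was at most 19.1 CPM at any stage, and in immune cells 177 CPM at E11.5 and 95.8 at E14.5.

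Gpi1, the isomerase that makes fructose 6-phosphate, stood at 85.0, 56.0 and 64.3 CPM in mesenchyme from the earliest to the latest stage. It stood at 135 and 118 CPM in epithelium, 138, 121 and 124 CPM in endothelium, and 209 and 171 CPM in immune cells. Mesenchyme held the lowest Gpi1 level of these 4 lineages at every stage compared. Pfkl, a phosphofructokinase subunit of the committed step, was the lowest enzyme, at 32.3, 21.8 and 26.8 CPM in mesenchyme and 49.8 and 40.2 CPM in epithelium. Aldoa, the aldolase that splits the hexose, stood at 208, 129 and 157 CPM in mesenchyme and 276 and 269 CPM in epithelium. Immune cells held the most Aldoa, 637 CPM (566 to 713) at E11.5 and 541 (494 to 591) at E14.5. Tpi1, which interconverts the triose phosphates, stood at 206, 143 and 202 CPM in mesenchyme and was highest in E14.5 epithelium, at 400 CPM (383 to 417), with 291 CPM (283 to 299) at E16.5.

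Of the payoff enzymes, Gapdh, the dehydrogenase that makes NADH, held between 37.8% and 57.7% of the UMIs of the 10 genes in the 11 groups with at least 50 cells. It stood at 1941 CPM (1927 to 1954), 1041 (1027 to 1056) and 1001 (987 to 1016) in mesenchyme of the 3 stages, and at 1758 and 1429 CPM in epithelium. Gapdh is often used as a reference transcript, and its levels here spanned 483 CPM in erythroid cells to 1995 in E11.5 immune cells. Pgk1, which makes the first ATP of the pathway, stood at 252, 145 and 141 CPM in mesenchyme and at 418 (401 to 435) and 307 (298 to 315) CPM in epithelium. Pgam1, the phosphoglycerate mutase, stood at 245, 190 and 232 CPM in mesenchyme and at 402 and 401 CPM in epithelium. Eno1, the enolase, stood at 290 CPM (284 to 295) in E11.5 mesenchyme, which did not differ beyond counting error from E11.5 immune cells at 250 (207 to 300), and fell to 95.6 (91.2 to 100) in E14.5 mesenchyme, with 163 CPM (152 to 174) in E14.5 epithelium, 142 in E16.5 mesenchyme and 207 in E16.5 epithelium. Ldha, the lactate dehydrogenase subunit that favours lactate, stood at 436, 392 and 364 CPM in mesenchyme and at 764 (741 to 788) and 565 (554 to 576) CPM in epithelium.

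**Figure D1:**
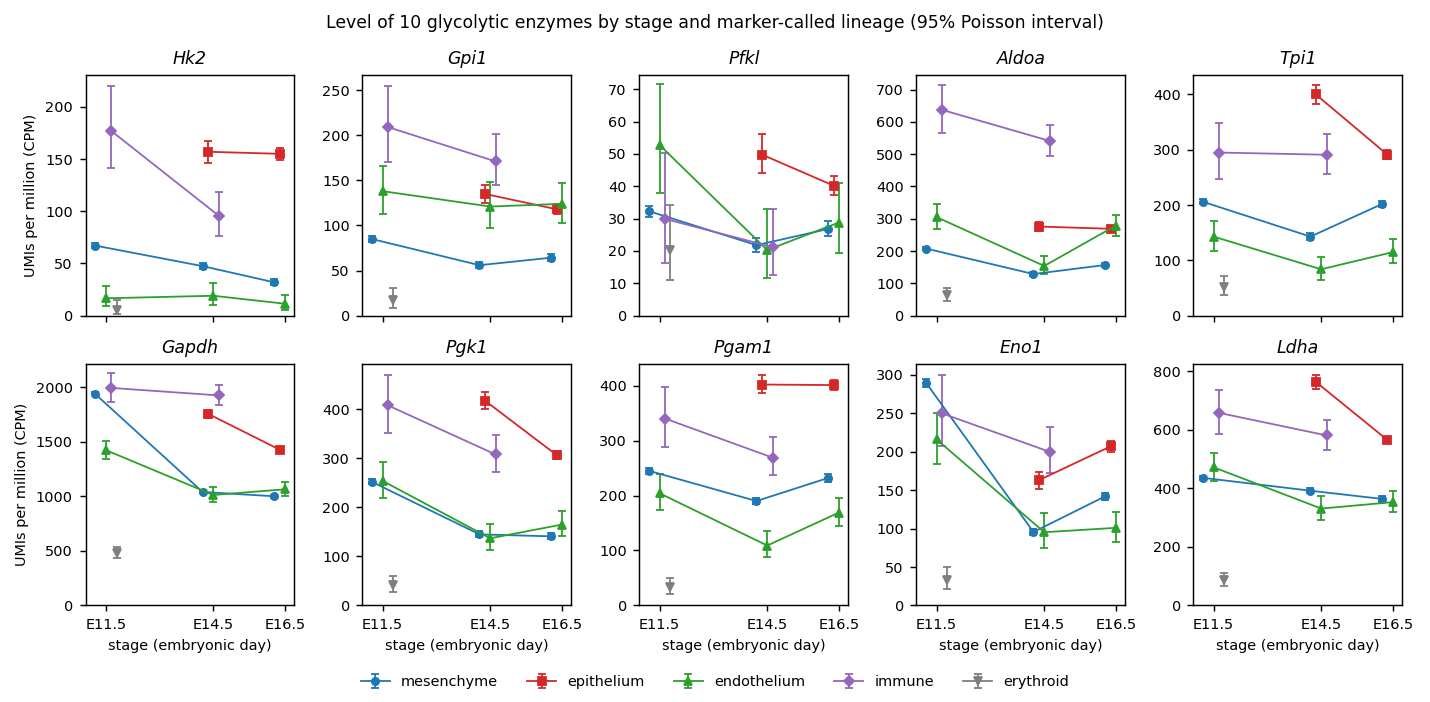
Level of each of the 10 enzymes in CPM (y axis, from 0) against embryonic day (x axis, to scale) in mesenchyme, epithelium, endothelium, immune and erythroid cells, with 95% Poisson intervals as bars and lines joining the stages of a lineage. Epithelium lies above mesenchyme of the same stage in each panel, as for Hk2 at 157 against 47.5 CPM at E14.5, and Eno1 in mesenchyme falls from 290 to 95.6 CPM between E11.5 and E14.5.

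Ordered by the 10 enzymes summed, E11.5 immune cells came first at 4998 CPM (4798 to 5205). E14.5 epithelium (4522) and E14.5 immune cells (4406) did not differ beyond counting error, nor did E16.5 epithelium (3782) and E11.5 mesenchyme (3761). E11.5 endothelium followed at 3225 CPM, and E16.5 endothelium (2411) and E16.5 mesenchyme (2362) again did not differ beyond counting error. E14.5 mesenchyme (2262), E14.5 endothelium (2084) and E11.5 erythroid cells (837) came last. In the erythroid cells 42.9% of all UMIs were haemoglobin, which lowers the share of any other gene, and 53.4% of 11890 genes were at least 1.5-fold lower there than in mesenchyme and 2.99% higher, so the 9 of 10 enzymes that were lower stand against a high background. Among genes of at least 20 CPM in either group 75.6% were lower and 4.67% higher. With each cell thinned to 2000 UMIs, the median cell held 7 UMIs of the 10 enzymes in E11.5 mesenchyme, 4 in E14.5 mesenchyme and 4 in E16.5 mesenchyme. It held 8 in E14.5 epithelium and 7 in E16.5 epithelium, so the order of the lineages was also that of their median cells. The spread from the 10th to the 90th percentile was 1 to 8 UMIs in E14.5 mesenchyme and 3 to 15 in E14.5 epithelium, and these overlapped.

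Epithelium was compared with mesenchyme of the same stage to ask how far the enzymes differed between the 2 tissues that form the tooth. Ratios are log2 ratios of CPM with 10 CPM added to both sides, which understates the ratio of low genes, and a gene counts as higher or lower past 1.5-fold. Shares over all genes were mostly smaller than those among genes of at least 20 CPM in either group. At E14.5 all 10 enzymes were higher in epithelium, with a median log2 ratio of 1.04, while 8.25% of the 11412 genes with at least 50 UMIs were higher, 8.68% were lower and their median was 0.01. Among genes of at least 20 CPM in either tissue, 10.8% were higher. Hk2 led with a log2 ratio of 1.54 (1.41 to 1.66), then Pgk1 with 1.46 (1.38 to 1.54) and Tpi1 with 1.42. Gpi1 (1.13), Aldoa (1.04), Pgam1 (1.04), Ldha (0.95) and Pfkl (0.91) lay between them and the smallest ratios, those of Gapdh (0.75) and Eno1 (0.71). The lower bounds of all 10 intervals were above 0.58, the log2 of 1.5, and the closest to it was that of Eno1, at 0.60.

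At E16.5 the log2 ratios of all 10 enzymes were above 0, with a median of 0.68 against 0.04 over all genes, and 6 were past 1.5-fold, where 7.90% of 12626 genes were higher and 8.71% lower (10.4% and 11.1% of genes of at least 20 CPM). Hk2 was again first, at 1.97 (1.87 to 2.07), which is 155 against 32.0 CPM. Pgk1 (1.06), Gpi1 (0.79), Pgam1 (0.77), Aldoa (0.74) and Ldha (0.62) were the other 5. Eno1 (0.51), Tpi1 (0.51), Gapdh (0.51) and Pfkl (0.45) stayed within 1.5-fold. When cells with 2 markers of another lineage were left out, 9 of 10 were past it and the median was 0.81. Epithelium and mesenchyme were also compared among cells of the same cycling state, and the part of cycling was not tested. In cells with UMIs of at least 3 of 10 cell cycle genes, 9 of 10 enzymes were higher in epithelium at E14.5 (9.55% of genes, 8.97% lower) and 4 of 10 at E16.5 (8.61%, 8.54% lower), with Hk2 at 1.5 and 2.05. The count at E16.5 was 9 when cells with 2 markers of another lineage were left out. The 10 enzymes summed stood at 0.83 in these cycling cells at E14.5 and at 0.51, within 1.5-fold, at E16.5. In cells with none of those genes, 10 of 10 (9.81%, 20.2% lower) and 5 of 10 (10.2%) were higher, with Hk2 at 1.71 and 1.85.

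**Figure D2:**
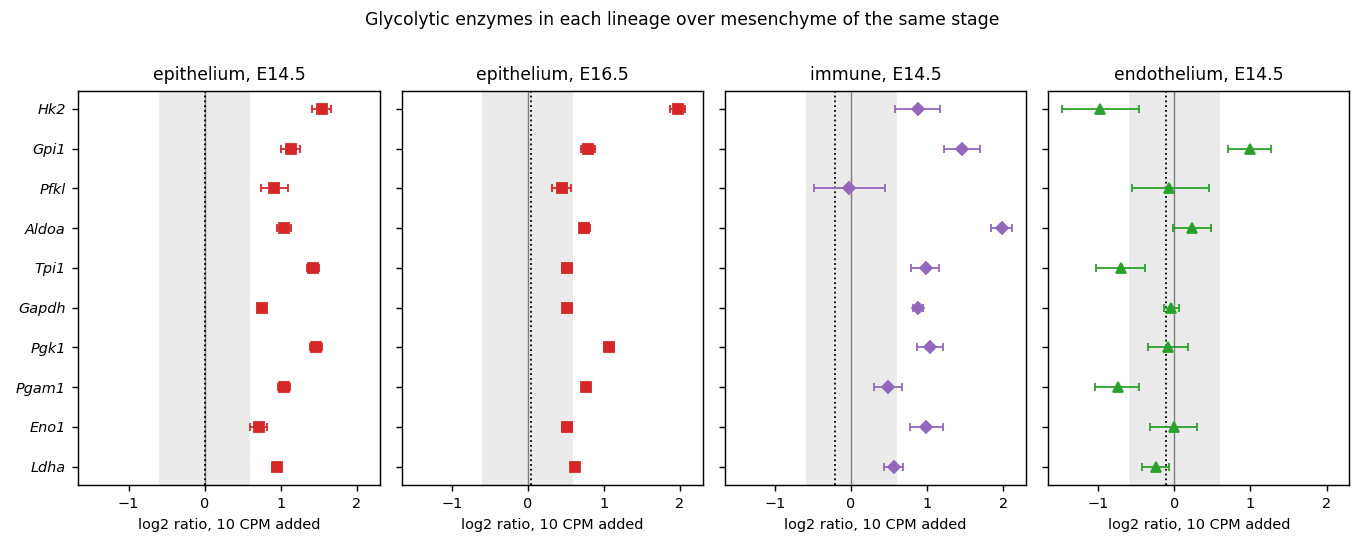
Log2 ratio of each enzyme over mesenchyme of the same stage (x axis, 10 CPM added to both sides) for epithelium at E14.5 and E16.5 and for immune cells and endothelium at E14.5, with 95% counting intervals as bars. The grey band marks 1.5-fold in either direction and the dotted line the median of all genes compared. All 10 enzymes lie right of the band in E14.5 epithelium. Hk2 reaches 1.97 in E16.5 epithelium but -0.98 in E14.5 endothelium, where it held 15 UMIs.

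Other genes of the pathway, from lists chosen with earlier results in view, differed less uniformly between epithelium and mesenchyme. Over all 11412 genes compared at E14.5, 8.25% were higher and 8.68% lower. Of 13 other enzymes of the glycolytic steps compared at E14.5, 2 were higher, Pkm (1.23, 579 against 241 CPM), which makes pyruvate, and Pfkp (0.70), and 1 was lower, the enolase Eno3 (-0.61). Of 9 glucose and lactate transport genes 3 were higher: Slc2a1, the glucose transporter GLUT1 (1.97, 80.6 against 13.2 CPM), Slc16a3, the lactate exporter MCT4 (1.20), and Emb, a partner protein of lactate transporters (1.18). Of 14 regulators of glycolysis and pyruvate entry 2 were higher, Pdk1 (1.54), the kinase that inhibits pyruvate dehydrogenase, and Pfkfb3 (0.72). Of 16 citric acid cycle genes 1 was higher (Suclg2, 0.83) and none lower, and their median was -0.01. Of 20 HIF pathway and hypoxia response genes 7 were higher and none lower, with a median of 0.30, led by Bnip3 (1.33), Fam162a (1.23) and Ddit4 (0.86).

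At E16.5 these lists held fewer genes that were higher in epithelium, except the citric acid cycle list. Over all 12626 genes compared there, 7.90% were higher and 8.71% lower. Of 14 other glycolytic enzymes 1 was higher, Pkm (0.60), and 3 were lower, Ldhb (-1.03, 104 against 223 CPM), the lactate dehydrogenase subunit of oxidative tissues, Eno3 (-0.83) and Pgm1 (-0.74). Emb (1.42) and Slc2a1 (1.01) were higher and Slc16a3 stood at 0.40. Pdk1 stood at 0.76 and Mpc2, a subunit of the carrier that takes pyruvate into mitochondria, at -0.80. Of 21 HIF and hypoxia genes 3 were higher, Fam162a (0.77), Mxi1 (0.75) and Kdm3a (0.61), and of 16 citric acid cycle genes 2 were, Cs (0.70) and Idh3a (0.63). Stress genes that respond to dissociation also differed between the tissues. Their 10 genes summed to 2196 CPM in epithelium and 1038 in mesenchyme at E14.5, with Atf3 at 324 against 9.86 CPM. At E16.5 they summed to 1281 CPM in epithelium and 1816 in mesenchyme. Their part in the ratios was not tested.

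Within epithelium the enzymes differed between regions. Regions were set, after the data had been seen, by at least 2 UMIs of genes that mark parts of the incisor epithelium and at least 2 times as many as of any other set. The UMIs of the genes of a set were added together, so a cell need not hold every gene of its set. At E14.5 the 77 cells of the Krt15 and Meis2 set summed to 2704 CPM (2590 to 2821), the 231 cells with 1500009L16Rik to 5293 (5209 to 5378) and the 46 cells with Shh, the ligand of the tooth signalling centres, to 4858 (4661 to 5061). The Krt15 and Meis2 cells thus lay closer to the mesenchyme of the stage, at 2262 CPM, than to the other epithelium. Ldha stood at 305 CPM in them and at 956 in the 1500009L16Rik cells, a log2 ratio of 1.62 (1.43 to 1.81). Of the 10 enzymes 8 were higher in the 1500009L16Rik cells than in the Krt15 and Meis2 cells, where 14.2% of 6620 genes were higher and 5.56% lower, with a median of 1.04 against 0.13, and the 2 others, Gapdh (0.55) and Gpi1 (0.54), had ratios above 0. Shh cells stood above Krt15 and Meis2 cells by the most in Pgk1, at 595 against 166 CPM (1.78, 1.49 to 2.08), and Hk2, at 264 against 77.2 CPM (1.65, 1.24 to 2.07), and by the least in Gapdh, at 1531 against 1414 CPM (0.11). Between Shh and 1500009L16Rik cells only Hk2 (0.60) was past 1.5-fold, where 9.25% of genes were higher and 19.4% lower, and the count was 2 when cells with 2 markers of another lineage were left out. Against mesenchyme, 2 of 10 were higher in the Krt15 and Meis2 cells (7.45% of genes, with 13.8% lower), Gpi1 (0.74) and Hk2 (0.60), and Ldha stood at -0.35, while 10 were higher in the 1500009L16Rik cells (8.77%, 10.4% lower) and 9 in the Shh cells (11.4%, 18.9% lower). The count of 2 in the Krt15 and Meis2 cells was 4 when the deepest 5% of cells were left out or each cell was given equal weight. The ribosomal share was 36.3%, 30.9% and 35.9% of UMIs in the 3 regions and the stress genes summed to 2920, 1729 and 4141 CPM. Cell cycle genes summed to 2034, 3050 and 1088 CPM in the same order, so the regions differed in these too. The part of the ribosomal, stress and cell cycle genes was not tested.

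At E16.5 the 490 cells of the Nr2f2 and Igfbpl1 set summed to 3399 CPM, the 148 cells of the Pcp4 and Cldn10 set to 4704 and the 135 Shh cells to 5364 (5257 to 5471). Hk2 stood at 132, 147 and 325 CPM in these, so that Shh cells held the highest Hk2 level of any group described here, at a log2 ratio of 1.23 (1.09 to 1.38) over the Nr2f2 and Igfbpl1 cells. Of the 10 enzymes 7 were higher in Shh cells than in Nr2f2 and Igfbpl1 cells, where 2.18% of 9401 genes were higher and 4.31% lower, with a median of 0.71. This count was 4 when cells were thinned to 2000 UMIs or each cell was given equal weight. Pgam1 (0.52), Gapdh (0.45) and Gpi1 (-0.05, 114 against 118 CPM) stayed within 1.5-fold. In the Pcp4 and Cldn10 cells 3 of 10 were higher than in the Nr2f2 and Igfbpl1 cells (3.57% of genes higher, 4.63% lower), Aldoa (0.97), Ldha (0.72) and Tpi1 (0.69). Between Shh and Pcp4 and Cldn10 cells only Hk2, at 1.10, was past 1.5-fold (3.84% of genes higher, 5.98% lower), and Pgk1 stood at 0.58, and the count was 2 in 4 of the alternatives. Over mesenchyme of the stage all 10 enzymes were higher in the Shh cells (8.45% of genes, 12.8% lower) and in the Pcp4 and Cldn10 cells (7.66%, 10.3% lower), and 4 in the Nr2f2 and Igfbpl1 cells (7.96%, 9.74% lower), with Hk2 at 2.99, 1.90 and 1.76. Cell cycle genes summed to 2640, 2813 and 3021 CPM in the 3 regions. The 32 cells of the Krt15 and Meis2 set at E16.5 summed to 3382 CPM and were too few to compare.

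Epithelial cells were also split by a UMI of Sox2, a stem cell factor of the incisor epithelium, and cells without one can include cells in which Sox2 was not detected. The 154 E14.5 epithelial cells with a Sox2 UMI summed to 4479 CPM and the 462 without to 4552, and at E16.5 the 120 with a UMI summed to 4234 and the 1343 without to 3715. None of the 10 enzymes was past 1.5-fold at either stage, where 0.560% of genes were higher and 1.22% lower at E14.5 and 2.50% higher and 2.70% lower at E16.5. A count of 0 is near these shares. Within E14.5 the ratio farthest from 0 was -0.28 (-0.47 to -0.09), for Hk2. At E16.5 Ldha stood at 0.47 (0.39 to 0.54), Tpi1 at 0.38 (0.27 to 0.48) and the sum at 0.19 (0.16 to 0.22), and 1 enzyme was past 1.5-fold when cells with 2 markers of another lineage were left out. Cells with a Sox2 UMI were deeper, with medians of 9281 against 4922 UMIs and 11949 against 7443 UMIs.

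**Figure D3:**
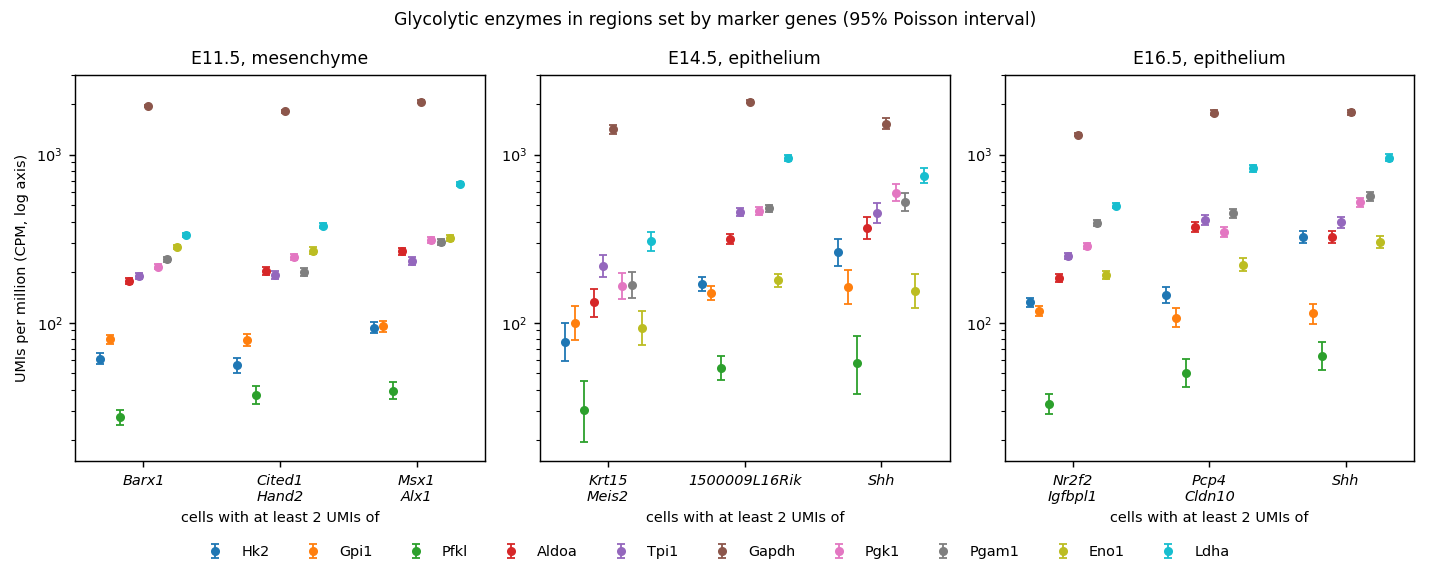
Level of each enzyme in CPM (y axis, log scale) in cells grouped by region genes (x axis), in E11.5 mesenchyme and in E14.5 and E16.5 epithelium, with 95% Poisson intervals as bars. Ldha stands at 305 CPM in the E14.5 Krt15 and Meis2 cells and 956 in the 1500009L16Rik cells, and Hk2 at 132 and 325 CPM in the E16.5 Nr2f2 and Igfbpl1 cells and Shh cells.

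Mesenchyme was compared between stages to ask how the enzymes stood as the mandible gave way to the incisor bud. The values compare whole mandibles with dissected buds, so a change over time and a change of tissue cannot be told apart. From E11.5 to E14.5 the sum fell from 3761 CPM (3743 to 3780) to 2262 (2240 to 2284). The log2 ratios of all 10 enzymes were below 0, with a median of -0.51 against -0.10 over all genes, and 4 were lower past 1.5-fold, where 8.73% of 12743 genes were lower and 6.80% higher. Among genes of at least 20 CPM in either stage 15.5% were lower and 9.50% higher. Eno1 was lower by far the most, at -1.50 (-1.57 to -1.44), then Gapdh (-0.89), Pgk1 (-0.75) and Aldoa (-0.64). Gpi1 (-0.53), Tpi1 (-0.50), Hk2 (-0.42), Pfkl (-0.41), Pgam1 (-0.35) and Ldha (-0.15) stayed within 1.5-fold. The enzymes did not move as a block, since the intervals of Eno1 and Ldha, 2 steps apart in the pathway, lay more than 2-fold from each other.

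Pkm, the step between Eno1 and Ldha, was at 511 and 241 CPM (-1.05), Ldhb at 223 and 89.1 CPM (-1.23) and Eno3 at 28.9 and 7.20 CPM (-1.18), and these 3 of the 12 other glycolytic enzymes compared were lower and none higher. Of 9 transport genes 1 was higher, Emb (0.90). None of 16 citric acid cycle genes was past 1.5-fold, with a median of -0.16, and of 20 HIF and hypoxia genes 2 were lower, Mif (-0.82) and Kdm3a (-0.76). Over all 12743 genes compared 8.73% were lower and 6.80% higher, so the count in the HIF list was near that share. Among genes of at least 20 CPM 15.5% were lower. Cell cycle and stress genes moved with the stage. The 10 cell cycle genes summed to 4019 CPM at E11.5 and 2722 at E14.5, and the 10 stress genes to 227 and 1038 CPM, with 8 of 10 higher and Fos at 3.29. The ribosomal share was 24.7% and 30.7% of UMIs and the median mitochondrial share 3.85% and 1.99%. With mitochondrial, ribosomal and haemoglobin UMIs left out of the total, 3 enzymes were lower and the median was -0.43. Among cycling cells alone the sum was 3781 and 2588 CPM, 4 enzymes were lower (8.69% of genes, 5.96% higher), and Eno1 stood at -1.39 (-1.47 to -1.30) and Ldha at 0.08 (0.03 to 0.12). In those cells 14.1% of genes of at least 20 CPM in either stage were lower and 8.25% higher. The part of the stress genes was not tested.

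Endothelium and immune cells of the same matrices were read beside mesenchyme. In endothelium 6 of the 9 enzymes with enough UMIs were lower at E14.5 than at E11.5, where 13.0% of 4146 genes were lower and 5.91% higher, with Eno1 at 216 and 95.3 CPM (-1.10, -1.47 to -0.73) and Pfkl, Aldoa, Pgk1, Pgam1 and Tpi1 from -1.05 to -0.70. Hk2 had too few UMIs there. In immune cells 1 of 9 was lower, where 17.6% of 3342 genes were lower and 11.1% higher: Hk2, at 177 and 95.8 CPM (-0.82, -1.24 to -0.41). With each cell given equal weight no enzyme was lower. Eno1 stood at -0.30 in immune cells with an interval that held 0. Stress genes summed to 587 and 2042 CPM in endothelium and to 1403 and 2227 CPM in immune cells.

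From E14.5 to E16.5, both dissected buds, no enzyme was past 1.5-fold in mesenchyme (4.43% of 12295 genes higher, 1.36% lower) or in epithelium (4.90% of 11380 higher, 1.61% lower). In mesenchyme 1 was when cells were thinned. The medians were 0.19 in mesenchyme, beside 0.09 over all genes, and -0.21 in epithelium, beside 0.10. In mesenchyme Eno1 (0.52, 0.44 to 0.60) and Tpi1 (0.47, 0.40 to 0.54) had the highest ratios and Hk2 the lowest (-0.45, -0.57 to -0.33). In epithelium Tpi1 (-0.44), Pgk1 (-0.43) and Ldha (-0.43) had the lowest ratios and Eno1 the highest (0.33, 0.23 to 0.43). Eno1 was thus the enzyme with the highest ratio in both tissues, and Tpi1 lay on opposite sides of 0. In endothelium Aldoa was higher, at 279 against 154 CPM (0.82, 0.53 to 1.12), the 1 of 8 enzymes compared that was, where 6.17% of 4555 genes were higher and 1.87% lower. That count was 3 in 4 of the 10 alternatives and 2 in 2 others. Between E16.5 and E11.5 endothelium 3 of 9 were lower, Eno1 (-1.03), Pfkl (-0.69) and Pgk1 (-0.60), where 10.1% of 4736 genes were lower and 9.29% higher.

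Around the enzymes, Slc2a1 fell from 80.6 to 34.6 CPM in epithelium (-1.02) and stood at 13.2 and 12.1 CPM in mesenchyme. Ldhb was higher in E16.5 mesenchyme, at 223 against 89.1 CPM (1.24), as were Hk1 (0.63), Galm (0.69) and, among the regulators of pyruvate entry, Mpc2 (0.80), Mpc1 (0.65) and Pdk1 (0.61). In epithelium none of the 12 other glycolytic enzymes compared was past 1.5-fold, where 4.90% of 11380 genes were higher and 1.61% lower. Between E16.5 and E11.5 mesenchyme 4 enzymes were lower, Eno1 (-0.98), Gapdh (-0.95), Hk2 (-0.88) and Pgk1 (-0.79), where 9.59% of 12999 genes were lower and 11.6% higher, and Tpi1 (-0.03) and Pgam1 (-0.08) stood near their E11.5 levels. Among genes of at least 20 CPM in either stage 17.1% were lower and 15.6% higher.

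**Figure D4:**
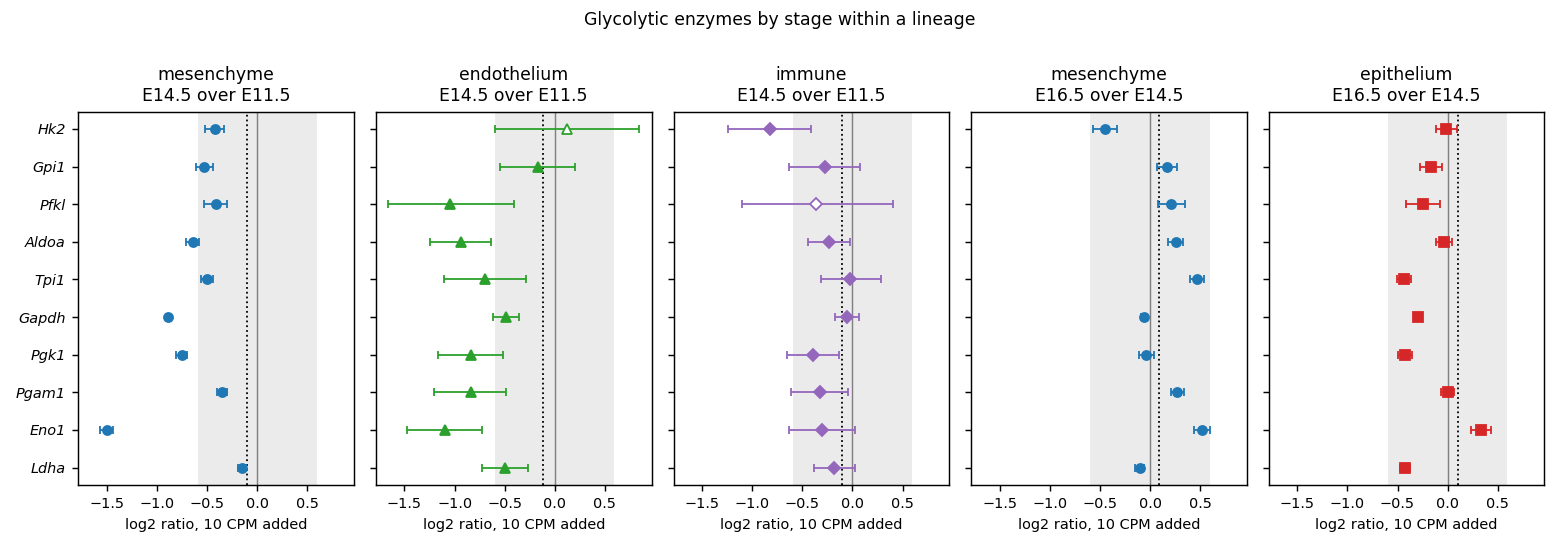
Log2 ratio of each enzyme between stages (x axis, 10 CPM added to both sides) within mesenchyme, endothelium, immune cells and epithelium, with 95% counting intervals as bars, the grey band at 1.5-fold and the dotted line at the median of all genes. Open symbols had under 50 UMIs over both stages. Eno1 lies at -1.50 in mesenchyme and -1.10 in endothelium from E11.5 to E14.5, and no enzyme leaves the band in mesenchyme or epithelium from E14.5 to E16.5.

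In immune cells Aldoa stood farthest above mesenchyme, with log2 ratios of 1.57 (1.40 to 1.73) at E11.5 and 1.98 (1.84 to 2.12) at E14.5, and Gpi1 stood at 1.21 and 1.46 and Hk2 at 1.28 and 0.88. Of the 10 enzymes 4 were higher at E11.5, where 11.6% of 11954 genes were higher and 23.9% lower, and 7 at E14.5, where 12.6% of 10872 genes were higher and 25.9% lower. Among genes of at least 20 CPM in either group 17.1% and 19.2% were higher and 30.3% and 29.9% lower. Pfkl stood at -0.08 and -0.03. In endothelium Gpi1 was higher than in mesenchyme at each stage (0.63, 0.99 and 0.85) and Hk2 lower (-1.53, -0.98 and -0.97). Of the 10 enzymes 1 was higher and 1 lower at E11.5 (12.1% and 16.2% of genes), 1 higher and 3 lower at E14.5 (11.6% and 15.7%) and 2 higher and 2 lower at E16.5 (11.7% and 16.8%), and the E14.5 count of 4 was 2 when cells were thinned or the deepest 5% left out. Among genes of at least 20 CPM in either group 18.2%, 17.9% and 17.6% were higher in order of stage and 19.6%, 17.2% and 18.0% lower. The 147 osteogenic cells of E14.5 (sum 1815 CPM, against 2285 in other mesenchyme) and the 198 of E16.5 (2590 against 2337) held no enzyme past 1.5-fold, where 1.74% and 1.49% of genes were higher and 2.05% and 0.680% lower, and neither did the 622 chondrogenic cells of E11.5 (3395 against 3852 CPM), where 0.355% were higher and 0.287% lower. The count in E14.5 osteogenic cells was 3 when thinned, 2 with equal weight per cell or without the deepest 5% of cells, and 1 in 3 other settings.

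Regions of E11.5 mesenchyme were compared in the same way. Ldha stood at 669 CPM in the 769 cells of the set of Msx1 and Alx1, transcription factors of the distal midline mandible. It stood at 333 CPM in the 1450 cells with Barx1, of the proximal mandible, a log2 ratio of 0.99 (0.93 to 1.04). It was the 1 of 10 enzymes past 1.5-fold, where 1.35% of 10582 genes were higher and 1.29% lower, although all 10 log2 ratios were above 0, with a median of 0.37 against -0.01. Aldoa (0.56), Hk2 (0.54) and Pgk1 (0.50) came next, and Gapdh stood at 0.09. The count was 3 with cells thinned to 2000 UMIs and 2 with 1 CPM added. The 936 cells of the Cited1 and Hand2 set held no enzyme past 1.5-fold over Barx1 cells, where 1.47% of genes were higher and 1.32% lower, with Ldha at 378 CPM. Cell cycle genes summed to 4144, 3954 and 4103 CPM in the Msx1 and Alx1, Barx1, and Cited1 and Hand2 cells.

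Cycling cells were compared with non-cycling cells of the same lineage and stage. In E14.5 mesenchyme 2010 cycling cells were compared with 1419 without a UMI of the 10 cell cycle genes, and 4 enzymes were higher, where 8.43% of genes were higher and 7.56% lower: Ldha (465 against 229 CPM, 0.99), Gapdh (0.93), Pgam1 (0.77) and Pgk1 (0.71). At E16.5 the count was again 4, where 6.91% were higher and 4.89% lower, with Ldha at 0.89, Pgk1 at 0.84, Pgam1 at 0.81 and Gapdh at 0.78. Gpi1 stood at -0.28 and -0.04 and Pfkl at -0.13 at E14.5, and Eno1 at 0.44 and 0.33, within 1.5-fold at both stages. In E16.5 epithelium Ldha (0.97) and Pgk1 (0.60) were higher, where 6.60% of genes were higher and 2.86% lower, and Aldoa stood at -0.44. The count of 2 there ran from 1 to 4 over the alternatives. In E14.5 epithelium the ratios ran from -0.23 for Pfkl to 0.56 for Gapdh. In E11.5 mesenchyme 1 was higher, Pgam1 (0.67), where 10.7% of genes were higher and 8.66% lower. That count was 4 with cells thinned to 2000 UMIs or with a stricter filter on cells, and 3 with a looser one, and only 83 cells there were non-cycling. Cycling cells were deeper, with median depths of 4885 against 2480 UMIs in E14.5 mesenchyme. A rule that asks for UMIs of several genes passes deep cells more easily, and its part in this difference was not tested. With cells thinned to 2000 UMIs the E14.5 count in mesenchyme was also 4. The cells had been split before thinning, so the part of depth in that choice was not tested.

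Several steps are served by more than one gene, and the share of each in the UMIs of its step differed by lineage. Hk2 held 85.7% (84.5 to 86.9) of hexokinase UMIs in E11.5 mesenchyme, then 79.6% in E14.5 mesenchyme and 56.7% (53.7 to 59.7) in E16.5 mesenchyme, with Hk1 holding most of the rest. In epithelium Hk2 held 94.9% (93.3 to 96.3) and 90.6% (89.5 to 91.6). In endothelium Hk1 had more UMIs than Hk2 at each stage. Hk2 held 35.1% (20.2 to 52.5) of 37 UMIs, 42.9% (26.3 to 60.6) of 35 and 12 of 40 (16.6% to 46.5%). At E11.5 and E14.5 the intervals of the Hk1 and Hk2 shares overlapped. Hk3, a hexokinase of blood cells, held 7.14% and 5.71% in immune cells and at most 0.0678% in mesenchyme and epithelium. The mesenchymal share of Hk2 thus fell at each stage beyond counting error.

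Ldha held 66.2% (65.6 to 66.7) of lactate dehydrogenase UMIs in E11.5 mesenchyme, then 81.5% (80.6 to 82.3) in E14.5 mesenchyme and 62.0% (61.1 to 62.9) in E16.5 mesenchyme, and Ldhb the rest, so that the share was highest in the middle stage. In epithelium it held 91.4% and 84.4%, and in endothelium and immune cells between 94.2% and 96.6%. Pfkl was the largest phosphofructokinase gene in mesenchyme and epithelium, at 67.2%, 61.8% and 58.8% and at 69.4% and 67.7%, with Pfkm second in mesenchyme at 27.9% at E11.5 and 30.3% at E16.5. Pfkp was second in endothelium, at 33.3% to 35.3%. Eno1 held 88.8%, 88.3% and 88.7% of enolase UMIs in mesenchyme and 95.4% and 95.8% in epithelium, and Eno3, the muscle enolase, 8.87%, 6.65% and 6.96% in mesenchyme and 0.746% and 0.884% in epithelium. A second feature with the symbol Aldoa held at most 5 UMIs in any stage and was summed with the first, and Eno1b, a near copy that could share reads with Eno1, held 332, 125 and 231 UMIs against 13401, 3260 and 6897 for Eno1.

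**Figure D5:**
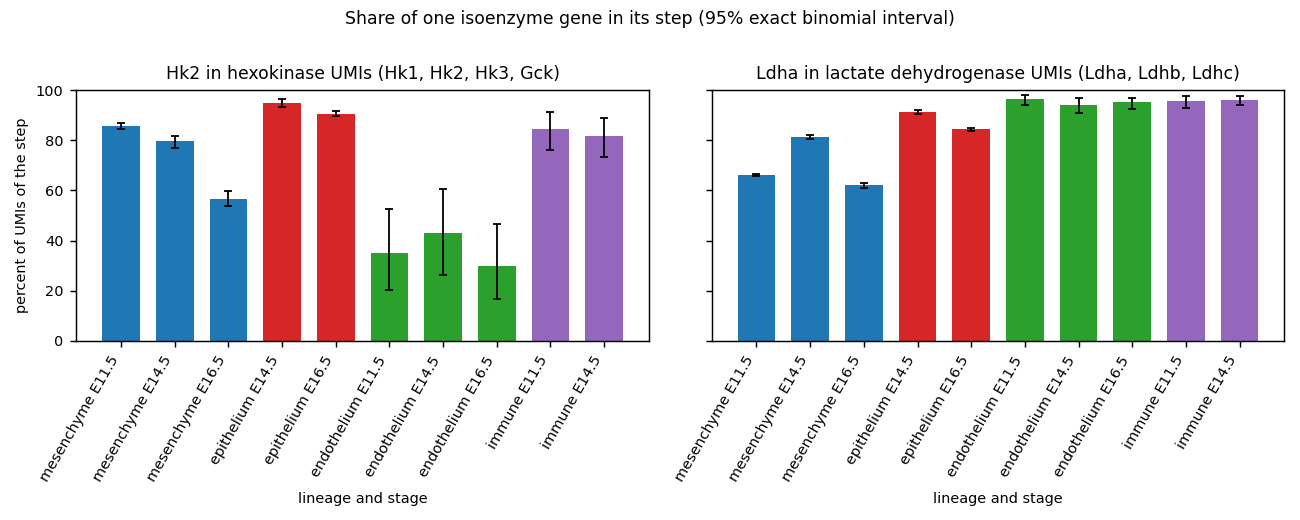
Share of Hk2 in hexokinase UMIs and of Ldha in lactate dehydrogenase UMIs (y axis, percent, from 0 to 100) by lineage and stage, with 95% exact binomial intervals as bars. Hk2 falls from 85.7% to 56.7% in mesenchyme across the stages and lies at or below 42.9% in endothelium, and Ldha is highest in E14.5 mesenchyme among the mesenchymal bars.

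The genes whose levels followed the sum of the 10 enzymes most closely were ranked over the 11 groups of at least 50 cells, among 2719 genes with a mean of at least 50 CPM. Of the enzymes Pgk1 had a Pearson r of 0.99 with the sum, of which it is itself a part, then Gapdh (0.98) and Ldha (0.97), down to Gpi1 (0.87) and Hk2 (0.82). Outside the pathway lists the 5 closest were Rpl3, a ribosomal protein (0.98), Lars, the leucine tRNA synthetase (0.95), Tomm20, a mitochondrial import receptor (0.95), Hspa4, a heat shock protein (0.94), and Atp5a1, a subunit of ATP synthase (0.94). The erythroid group lies far below the others and weighs heavily in these values, and groups of one stage share a library. Among the enzymes, Tpi1 and Pgam1 followed each other with an r of 0.96 over the 10 groups without erythroid cells, while Pfkl stood at 0.20 with both Hk2 and Aldoa. Pfkl was below the level at which genes were ranked.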

How the data were processed

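The authors dissociated wild-type NMRI mouse tissue, sequenced it with 10x Genomics 3' chemistry and deposited 1 matrix of raw UMI counts per stage, made with Cell Ranger 4.0.0 on mm10. The deposited counts are whole numbers with no normalization, and 1 UMI is 1 captured molecule, so levels were not scaled by gene length. Barcodes were kept from 700 genes upward and up to 20% mitochondrial UMIs, 6573 of 8708, 6091 of 8192 and 4511 of 5719 barcodes, and no doublet caller was run. The barcodes carry no sample, so each stage was 1 sample, and no test was made. The labels list 4, 4 and 2 samples, while the study's methods give more mandibles at E11.5 from several litters.

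UMIs of all cells in a group were added up and divided by the total of the group (CPM). Genes with at least 50 UMIs over both groups were compared, by the log2 ratio with 10 CPM added to both, and called past 1.5-fold. Intervals (95%) were exact Poisson for levels, exact binomial for shares and, for ratios, the Poisson intervals of both levels combined by square-and-add on the log2 scale. They cover counting error only. The members, and the gene lists, were chosen with earlier results of these data known, and the lineage rule and the region rule were set after the data had been seen. Named genes were all 10 members and, of each pathway list, at most the 3 highest and the 3 lowest ratios, isoform partners of the members, and the 5 genes outside the lists closest to the sum. On simulated counts for E14.5 epithelium over mesenchyme (11130 genes) 93.5% of 200 changed genes and 0% of unchanged genes were called, and for mesenchyme E14.5 over E11.5 (12432 genes) 97.5% and 0%. In both, 95.5% of intervals held the true ratio. The counts of both groups were drawn around the levels of the second group with Poisson noise only. No variation between samples, libraries or dissociations was simulated, so these shares cover counting error only. Promoter windows were read from RefSeq. Python 3.11.15, numpy 2.4.6, scipy 1.17.1, pandas 2.3.3 and matplotlib 3.10.9 were used. The alternatives tried are given with their effect at the end.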

Additional observations from a re-analysis of the deposited data

Results flagged for a closer look

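From E14.5 to E16.5 the 10 enzymes summed moved by a log2 ratio of 0.06 in mesenchyme, -0.26 in epithelium and 0.21 in endothelium, so the lineages lay on opposite sides of 0. The same held for Gpi1 (0.17 in mesenchyme and -0.17 in epithelium), Pfkl (0.21 and -0.25) and Tpi1 (0.47 and -0.44, with 0.41 in endothelium). None of these ratios was past 1.5-fold, each stage is 1 sample, and the differences between lineages were not tested.

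Barcodes removed by the filter on genes and mitochondrial UMIs also held enzyme UMIs. Their summed level was 2441 CPM (2368 to 2515) in the 2135 barcodes removed at E11.5, 813 (785 to 842) in the 2101 removed at E14.5 and 825 (792 to 859) in the 1208 removed at E16.5, against 3704, 2882 and 3062 CPM in the cells kept.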

How the results depend on the processing

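No paired analysis was possible because each stage was 1 pooled sample, and for that reason leaving out replicates could not be run. Epithelium at E11.5 (9 cells) was not compared. Across 45 comparisons and 10 alternative settings the number of the 10 enzymes past 1.5-fold stayed within 1.5 times in 412 of 450 cases and moved in 38, and none reversed. Of single enzyme ratios 4303 stayed within their interval and 647 moved, and none reversed. The count at E14.5 between epithelium and mesenchyme was 10 in each setting. The moved counts follow, with the cause not tested.

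With cells thinned to 2000 UMIs the count went from 1 to 3 in Msx1 and Alx1 over Barx1 cells, 7 to 4 in Shh over Nr2f2 and Igfbpl1 cells, 1 to 4 in cycling mesenchyme at E11.5, 1 to 3 in endothelium E16.5 over E14.5, 4 to 2 in endothelium over mesenchyme at E14.5, 0 to 1 in mesenchyme E16.5 over E14.5 and 0 to 3 in osteogenic cells at E14.5. With equal weight per cell it went from 2 to 4 in Krt15 and Meis2 cells over mesenchyme, 7 to 4 in Shh over Nr2f2 and Igfbpl1 cells, 2 to 1 in cycling epithelium at E16.5, 1 to 3 in endothelium E16.5 over E14.5, 1 to 0 in immune cells and 0 to 2 in osteogenic cells at E14.5. Without the deepest 5% of cells it went from 2 to 4 in Krt15 and Meis2 cells over mesenchyme, 1 to 2 in Shh over Pcp4 and Cldn10 cells, 0 to 1 and 2 to 4 in cycling epithelium at E14.5 and E16.5, 1 to 3 in endothelium E16.5 over E14.5, 4 to 2 in endothelium over mesenchyme at E14.5 and 0 to 2 in osteogenic cells at E14.5.

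With cells that held 2 markers of another class left out it went from 1 to 2 in Shh over 1500009L16Rik cells, 0 to 1 in Sox2 cells at E16.5, 4 to 9 in cycling epithelium over cycling mesenchyme at E16.5, 2 to 4 in cycling epithelium at E16.5, 1 to 2 in endothelium E16.5 over E14.5 and 0 to 1 in osteogenic cells at E14.5. With 1 CPM added it went from 1 to 2 in Msx1 and Alx1 over Barx1 cells and in Shh over Pcp4 and Cldn10 cells, 1 to 3 in endothelium E16.5 over E14.5 and 0 to 1 in osteogenic cells at E14.5. With mitochondrial, ribosomal and haemoglobin UMIs left out it went from 1 to 2 in Shh over Pcp4 and Cldn10 cells and 2 to 1 in cycling epithelium at E16.5. With a minimum of 1000 genes and a limit of 10% mitochondrial UMIs it went from 1 to 2 in Shh over Pcp4 and Cldn10 cells, 1 to 4 in cycling mesenchyme at E11.5 and 0 to 1 in osteogenic cells at E14.5. With at least 200 genes it went from 2 to 1 in cycling epithelium at E16.5 and 1 to 3 in cycling mesenchyme at E11.5. With lineages set by a 70% share of marker UMIs it went from 1 to 2 in endothelium E16.5 over E14.5.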

Other observations

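Cells left without a lineage held enzyme levels of 3425, 3621 and 3546 CPM from the earliest to the latest stage, so that in the incisor buds they lay above the mesenchyme of the stage (2262 and 2362 CPM). They were shallower, with median depths of 2609, 2606 and 3032 UMIs.

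Erythroid cells at E11.5, where Pklr encodes the pyruvate kinase of red cells and liver, held 32.4% of their 71 pyruvate kinase UMIs as Pklr. The summed enzymes in the median erythroid cell, thinned to 2000 UMIs, came to 2 UMIs.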
